A study of Mus musculus with 18 samples.

Results

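The 10 genes described here encode adhesive and plaque proteins of the desmosome: the desmogleins Dsg1a, Dsg2, Dsg3 and Dsg4, the desmocollins Dsc1, Dsc2 and Dsc3, the plaque protein desmoplakin (Dsp), and the plakophilins Pkp1 and Pkp3. They were chosen by name, from a deposited count table of 24376 genes, and all 10 had a row in it. RNA was sequenced from mammary epithelium dissected out of buds 1 to 3 of mouse embryos of mixed C57Bl/6 and NMRI background, in 18 libraries that form 4 groups by embryonic day and genotype. The design asks how epithelium with stabilized β-catenin differs from that of control littermates at each stage.

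The E16.5 stabilized group (5 libraries, females only) and the E13.5 stabilized group (4 libraries, embryos of both sexes) carried Krt14Cre and 1 Ctnnb1 flox3 allele. Cre, driven by the Krt14 promoter and so made in epithelial cells, removes exon 3 of that allele, and the β-catenin made from it then escapes destruction; the other allele is wild type. The E16.5 control group (5 libraries, females only) and the E13.5 control group (4 libraries, both sexes) carried the same flox3 allele without Cre, so an effect of Cre itself cannot be told apart from that of the stabilized protein. Every library pooled the epithelium of 2 to 3 embryos sharing litter and genotype, and the groups drew on at least 3 litters. Stage and sex makeup cannot be told apart, since E13.5 pools held males and females.

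A desmosome joins neighbouring epithelial cells through its cadherins, the desmogleins and desmocollins, which meet in the space between the cells. On the inner side, plakoglobin and the plakophilins bind the cadherin tails, and desmoplakin ties this plaque to the keratin filaments. In stratified epithelium the cadherins are graded: Dsg3 and Dsc3 are strongest in basal cells and Dsg1 and Dsc1 in the layers above, while Dsg2 is typical of simple epithelia and Dsg4 of the hair shaft.

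Library totals ran from 26768810 to 36922108 counts. All 9 markers of mammary bud epithelium were detected in every library, but their levels differed by genotype. In stabilized libraries Krt8, Krt18, Epcam and Tbx3 were lower and Krt5, Cdh1 and Trp63 higher at E16.5, and Krt8, Krt14, Tbx3 and Gata3 were lower and Krt5 higher at E13.5. Krt8, for example, averaged 51.3 CPM in E16.5 stabilized and 245 CPM in E16.5 control libraries, and Tbx3 552 CPM in E13.5 stabilized and 1330.1 CPM in E13.5 control libraries; their part in the results below was not tested. Counts of Ctnnb1 over the whole gene were 1693 to 3211 CPM in E16.5 stabilized and 1112 to 1395 CPM in E16.5 control libraries, and 2758 to 3496 CPM in E13.5 stabilized and 2421 to 3156 CPM in E13.5 control libraries; since exon 3 is not counted apart, they do not check the allele. CPM values are counts scaled to a common library total after TMM adjustment. Among E16.5 stabilized libraries, replicate 1 stood apart in suprabasal RNA, with 19935 CPM over 7 suprabasal epidermis markers, against 1079 to 1913 CPM in the other 4 libraries of its group. E13.5 control replicate 3 stood apart by its mitochondrially encoded share of counts, 4.18%, against 2.18% to 2.50% in the other 3 libraries of that group. Over all genes, E16.5 stabilized replicate 4 was the farthest from its group, with a chi-square per degree of freedom of 571 to 648 against the other 4, which were at 37.1 to 182 among themselves. Mitochondrially encoded counts made up 2.62% to 5.36% in E16.5 stabilized libraries, highest in replicates 2 and 5, and 2.21% to 3.88% in E16.5 controls; their part in the results was not tested.

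**Figure D1:**
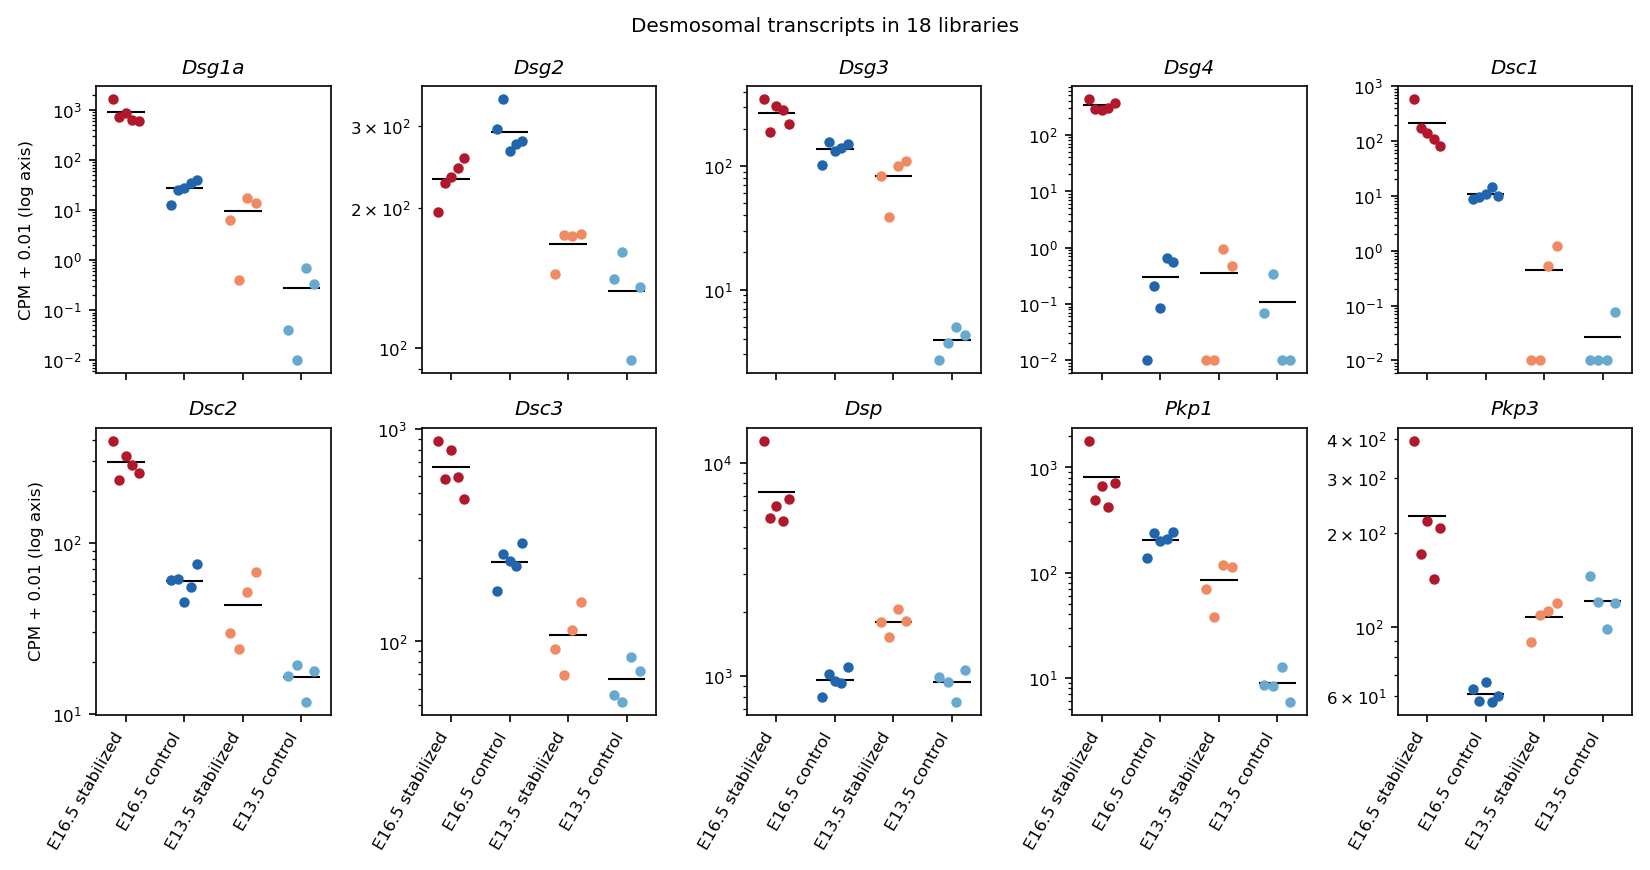
CPM (plus 0.01, log axis) of the 10 desmosomal genes in each of the 18 libraries; dots are libraries and bars group means, with E16.5 stabilized, E16.5 control, E13.5 stabilized and E13.5 control from left to right. Dsg4 was at 281 CPM or more in the 5 E16.5 stabilized libraries and below 1 CPM in the other 13, and Dsg2 was the gene with its highest values in E16.5 controls.

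At E16.5, stabilized buds held more desmosomal RNA of nearly every kind. Of the 10 genes, 9 were higher and 1, Dsg2, was lower than in controls, with groups that did not overlap for any of the 10; over all 17269 genes tested, 22.2% were called higher and 19.4% lower, 18.4% had stabilized libraries all above the controls, and 17.9% all below. The median log2 fold change of the 10 genes was 2.16, beside 0.10 over all genes tested. At E13.5 the change was narrower. Dsp, Dsg1a, Dsg3, Dsc2 and Pkp1 were higher in stabilized buds and none of the 10 was lower (0 also at an unadjusted p under 0.05 and in DESeq2), where 9.58% of all genes tested were called higher and 5.29% lower. Stabilized libraries were all above the controls for 4 of these 5, the exception being Dsg1a, as for 9.93% of all genes tested; the median log2 fold change of the 10 was 1.57, beside 0.01 over all genes. All calls are from edgeR's quasi-likelihood test at an adjusted p under 0.05. All 10 genes passed the filter on low counts, and would have passed it without the E16.5 stabilized libraries; Dsg4 reached its minimum in only 5 and Dsc1 in 7 of the other 13 libraries. Without E16.5 stabilized replicate 4 or 5, 9 of the 10 were again higher and 1 lower at E16.5, and without replicate 2, 9 were higher and 0 lower.

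Summed, the 10 genes took 0.648% to 1.64% of all counts in E16.5 stabilized libraries (median 0.925%) and 0.153% to 0.226% in E16.5 controls. The E13.5 stabilized libraries gave them 0.224% to 0.287%, against 0.114% to 0.161% in E13.5 controls. Dsp alone made up 62.1% to 68.2% of these counts in E16.5 stabilized and 47.1% to 49.2% in E16.5 control libraries, and 70.6% to 77.8% in E13.5 stabilized and 71.1% to 75.1% in E13.5 control libraries. The other 9 genes together took 0.233% to 0.564% of all counts in E16.5 stabilized and 0.0791% to 0.115% in E16.5 control libraries, and 0.0512% to 0.0837% in E13.5 stabilized and 0.0330% to 0.0427% in E13.5 control libraries. With or without Dsp, the stabilized and control ranges were apart at both stages. In bulk tissue, fewer cells of a type and less RNA per cell cannot be told apart.

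Among the desmogleins, Dsg3, the desmoglein of basal cells in stratified epithelium, differed most clearly between genotypes at the early stage. Its levels in the E16.5 stabilized libraries were 349, 188, 309, 285 and 221 CPM, against 102, 156, 134, 141 and 150.1 CPM in E16.5 controls. The E13.5 stabilized libraries had 83.5, 38.9, 99.6 and 111 CPM, against 2.66, 3.66, 4.98 and 4.30 CPM in E13.5 controls. Stabilized libraries were all above the controls at both stages. The highest E13.5 stabilized library (111 CPM) lay above the lowest E16.5 control (102 CPM), and the rest of its group lay below every E16.5 control. E13.5 stabilized buds averaged 83.2 ± 31.6 CPM and E13.5 controls 3.90 ± 0.988 CPM (SD, n = 4 each). The log2 fold change was 0.99 ± 0.236 (SE) at E16.5 (edgeR adjusted p = 0.00246) and 4.42 ± 0.307 at E13.5 (edgeR adjusted p = 1.73e-08).

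Dsg4, which is found mainly in the hair follicle and whose loss makes mouse hair brittle, was in effect on or off. Its counts in the 5 E16.5 stabilized libraries were 11233, 8953, 8241, 8437 and 10804, against 0, 6, 2, 19 and 15 in E16.5 controls. At E13.5 it had 0, 0, 27 and 14 counts in stabilized and 2, 11, 0 and 0 in control libraries. Only E16.5 stabilized buds thus held more than a trace of it, at 332 ± 64.8 CPM. The ratio of group sums at E16.5 was 1174 (95% interval 869 to 1630, counting error only), and the log2 fold change was 10.17 ± 0.831 (edgeR adjusted p = 1.13e-07). At E13.5 the groups overlapped and the test did not pass (log2 fold change 1.74, edgeR adjusted p = 0.423), at a depth where 1 count stands for 0.0296 to 0.0346 CPM.

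Dsg1a encodes a mouse copy of desmoglein 1, the desmoglein of suprabasal keratinocytes. In E16.5 stabilized libraries it had 1641, 721, 851, 617 and 607 CPM, against 12.6, 25.7, 27.2, 34.0 and 39.6 CPM in E16.5 controls. In E13.5 stabilized libraries it had 6.33, 0.398, 17.6 and 13.51 CPM, against 0.0296, 0, 0.702 and 0.324 CPM in E13.5 controls. The genotypes were well apart at E16.5; at E13.5 stabilized replicate 2 lay inside the control range and the other 3 stabilized libraries lay above it. The effect on the log2 scale was 4.996 ± 0.772 at E16.5 (edgeR adjusted p = 8.80e-05) and 5.20 ± 1.01 at E13.5 (edgeR adjusted p = 0.00226). When only the E13.5 libraries entered the fit, the E13.5 call was lost (edgeR adjusted p = 0.0522).

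Reads of Dsg1a can also match Dsg1b and Dsg1c, its near-identical neighbours, so the split between the 3 rows is uncertain. Their sum was 1209 ± 617 CPM in E16.5 stabilized and 34.5 ± 11.6 CPM in E16.5 control libraries, and 15.7 ± 10.3 CPM in E13.5 stabilized and 1.86 ± 1.70 CPM in E13.5 control libraries. The summed E13.5 values were 12.8, 3.45, 28.0 and 18.5 CPM in stabilized and 1.06, 0.744, 1.24 and 4.40 CPM in control libraries, which overlapped in stabilized replicate 2 and control replicate 4. Dsg1a held 73.5% of the sum in E16.5 stabilized and 80.3% in E16.5 control libraries, and 60.4% in E13.5 stabilized and 13.7% in E13.5 control libraries.

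Dsg2, the desmoglein of simple epithelia and heart muscle, had the smallest genotype effect of the 10 genes at E16.5. It had 196, 226, 232, 244 and 256 CPM in E16.5 stabilized libraries, against 295, 342, 265, 274 and 278 CPM in E16.5 controls. Every stabilized value lay below every control value, by a small margin. The log2 fold change was -0.33 ± 0.126, at an edgeR adjusted p of 0.0402. This call was lost in 10 of 25 alternatives, among them RLE factors (edgeR adjusted p = 0.0654), DESeq2 (adjusted p = 0.0562), and leaving out E16.5 control replicate 1, 2 or 5 or E16.5 stabilized replicate 1, 2 or 3; the adjusted p ran from 0.0103 to 0.266 over the 25. At E13.5 Dsg2 averaged 167 ± 15.3 CPM in stabilized and 133 ± 28.0 CPM in control libraries, which overlapped (log2 fold change 0.33, edgeR adjusted p = 0.130).

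Of the desmocollins, Dsc1 belongs to the upper epidermal layers and the hair follicle. It had 584, 172, 142, 108 and 81.3 CPM in E16.5 stabilized libraries, against 8.67, 9.73, 10.9, 14.4 and 10.03 CPM in E16.5 controls. The lowest stabilized library was thus several times above the highest control. Dsc1 had a log2 fold change of 4.34 ± 0.671 (edgeR adjusted p = 8.42e-05), and 3.55 without E16.5 stabilized replicate 1 (edgeR adjusted p = 0.000126). At E13.5 it had 0, 0, 15 and 37 counts in stabilized libraries, against 0, 0, 0 and 2 in controls. Nearly all E13.5 counts came from stabilized replicates 3 and 4; the ratio of group sums was 28.1 (95% interval 7.39 to 238, counting error only), and the test did not pass (edgeR adjusted p = 0.1102), though it did without E16.5 stabilized replicate 1 (edgeR adjusted p = 0.0393) and in DESeq2 (adjusted p = 0.0106).

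Dsc2, the most widely made desmocollin, had 396, 233, 322, 287 and 258 CPM in E16.5 stabilized libraries, against 60.3, 61.3, 45.1, 55.3 and 75.5 CPM in E16.5 controls. At E13.5 it had 29.6, 23.8, 51.8 and 67.2 CPM in stabilized libraries, against 16.6, 19.3, 11.7 and 17.6 CPM in controls. The genotypes did not overlap at either stage; E13.5 stabilized replicates 3 and 4 lay inside the range of E16.5 controls and replicates 1 and 2 below it. Dsc2 had log2 fold changes of 2.33 ± 0.247 at E16.5 (edgeR adjusted p = 5.16e-07) and 1.40 ± 0.271 at E13.5 (edgeR adjusted p = 0.00127).

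Dsc3, the desmocollin of basal cells, was the main desmocollin in every group. It averaged 666 ± 171 CPM in E16.5 stabilized and 238 ± 43.1 CPM in E16.5 control libraries, whose ranges, 469 to 883 and 173 to 289.7 CPM, did not meet. Its log2 fold change was 1.49 ± 0.214 (edgeR adjusted p = 1.39e-05). At E13.5 it averaged 107 ± 35.7 CPM in stabilized and 66.2 ± 15.1 CPM in control libraries, which overlapped, and the test just missed (log2 fold change 0.70 ± 0.236, edgeR adjusted p = 0.0534). It passed at E13.5 without control replicate 3 (0.84, edgeR adjusted p = 0.0290), without stabilized replicate 2 (0.86, edgeR adjusted p = 0.0145) and in DESeq2 (0.69, adjusted p = 0.0314).

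Dsp, desmoplakin, the link from plaque to keratin that every desmosome needs, was the most abundant of the 10 per kilobase of exon in all 4 groups. The E16.5 stabilized libraries had 12674, 5504, 6259, 5352 and 6794 CPM, against 796, 1022, 951, 934 and 1111 CPM in E16.5 controls. The E13.5 stabilized libraries had 1801, 1531, 2059 and 1813 CPM, against 989, 943, 758 and 1073 CPM in E13.5 controls. Stabilized libraries were above controls without overlap at both stages, while the controls of E16.5 and E13.5 overlapped almost fully. The log2 fold change was 2.93 ± 0.211 at E16.5 (edgeR adjusted p = 1.99e-09) and 0.94 ± 0.222 at E13.5 (edgeR adjusted p = 0.00591); without E16.5 stabilized replicate 1, the E16.5 value was 2.63.

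Dsp is on chromosome 13 at 38151294-38198577 (GRCm38/mm10, GENCODE M21, plus strand). Its promoter is shown because Dsp was the only member of the 10 that matched the RefSeq promoter table. The 250 bases before its start, chr13:38151044-38151293 (GRCm38.p6, plus strand, RefSeq), read as follows, with capitals marking CCCCGCCC, the core bound by SP and KLF factors, on either strand.
Dsp: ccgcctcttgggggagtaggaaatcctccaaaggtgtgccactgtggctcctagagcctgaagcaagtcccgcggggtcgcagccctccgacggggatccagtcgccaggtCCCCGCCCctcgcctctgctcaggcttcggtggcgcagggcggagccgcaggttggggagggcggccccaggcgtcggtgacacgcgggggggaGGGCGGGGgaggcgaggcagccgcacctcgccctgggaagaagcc
The letters CCCCGCCC occur at 2 places that do not overlap each other, 1 on each strand, and are held by 16.1% of 32851 promoter windows of that length. Guanine and cytosine make up 72.4% of the window, against a median of 52.4% over all windows, 93.6% of which are lower. No CTTTGAA or CTTTGAT, the core of the LEF/TCF motif, was found on either strand (in 7.48% of all windows), nor AACCGGTT, a GRHL motif (0.116%), nor TATAAA (12.4%).

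Of the plakophilins, Pkp1, which is typical of suprabasal stratified epithelium, changed with both genotype and stage. In E16.5 stabilized libraries it had 1795, 489, 667, 424 and 705 CPM, against 137, 238, 202, 209 and 244 CPM in E16.5 controls. In E13.5 stabilized libraries it had 69.8, 37.7, 118 and 114 CPM, against 8.58, 8.39, 12.7 and 5.86 CPM in E13.5 controls. The genotypes were apart at both stages, and replicate 1 of the E16.5 stabilized group was far above the other 4. The log2 fold change was 1.98 ± 0.392 at E16.5 (edgeR adjusted p = 0.000628), or 1.47 without that library, and 3.26 ± 0.465 at E13.5 (edgeR adjusted p = 0.000114).

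Pkp3, a plakophilin of most simple and stratified epithelia, had 396, 172, 219, 142 and 209 CPM in E16.5 stabilized libraries, against 63.1, 57.9, 66.5, 57.5 and 59.97 CPM in E16.5 controls. In E13.5 stabilized libraries it had 89.4, 109, 113 and 119 CPM, against 145, 120.2, 98.8 and 119 CPM in E13.5 controls. The genotypes were apart at E16.5 and overlapped at E13.5, and the E16.5 controls were below every other library. On the log2 scale the difference was 1.9002 ± 0.203 at E16.5 (edgeR adjusted p = 3.66e-07), or 1.60 without E16.5 stabilized replicate 1, and -0.17 ± 0.219 at E13.5 (edgeR adjusted p = 0.721).

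**Figure D2:**
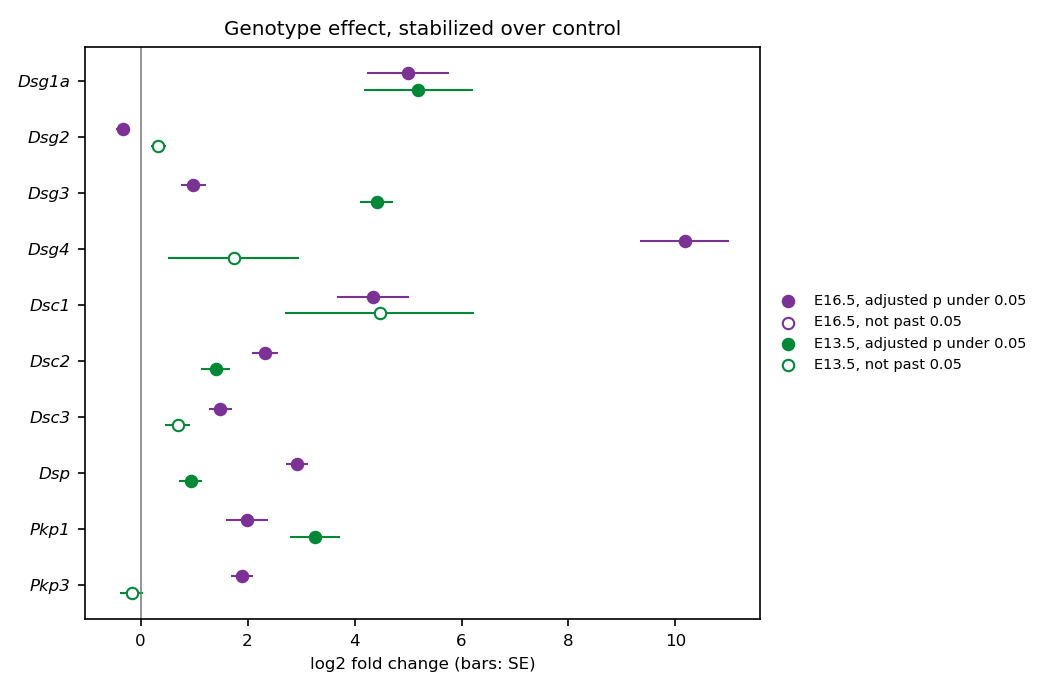
Log2 fold change of stabilized over control for the 10 genes at E16.5 (purple, upper dot) and E13.5 (green, lower dot), with bars of 1 SE; filled dots passed an edgeR adjusted p of 0.05. At E16.5, Dsg4 was highest at 10.17 and Dsg2 lowest at -0.33, while at E13.5 Dsg3 at 4.42 lay far above its E16.5 value of 0.99.

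Whether a gene's genotype effect differed between stages was tested as the interaction, the E16.5 log2 fold change minus that of E13.5. The effect was larger at E16.5 for Dsp, Dsg4 and Pkp3 and smaller, or more negative, for Dsg2 and Dsg3, while over all genes tested 15.6% were called higher and 16.6% lower. The difference was 1.99 ± 0.298 for Dsp (edgeR adjusted p = 3.88e-05) and 2.07 ± 0.297 for Pkp3 (edgeR adjusted p = 2.60e-05). Dsg3 stood at the other end, at -3.43 ± 0.368 (edgeR adjusted p = 1.42e-06). Direction did not divide plaque from cadherin genes. The plaque genes Dsp and Pkp3 and the cadherin gene Dsg4 went 1 way, and the cadherin genes Dsg2 and Dsg3 the other. Pkp1, a plaque gene, also had a negative value (-1.27), which did not pass (edgeR adjusted p = 0.105). The fitted difference for Dsg4 was 8.43 (edgeR adjusted p = 0.00523), with E13.5 groups at 41 counts in stabilized and 13 in control libraries, and without E13.5 control replicate 2, which held 11 of those 13, it did not pass (6.38, edgeR adjusted p = 0.306). For Dsg2 it was -0.67 ± 0.189 (edgeR adjusted p = 0.0105), and did not pass with the offsets of the deposited normalized table (-0.47, edgeR adjusted p = 0.115).

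The other 5 genes did not pass the interaction test. Dsg1a (-0.20, edgeR adjusted p = 0.932) and Dsc1 (-0.14, edgeR adjusted p = 0.940) had values near 0, with few counts at E13.5 behind them. Dsc2 (0.93, edgeR adjusted p = 0.0542) and Dsc3 (0.79, edgeR adjusted p = 0.0622) lay just short of the threshold. Pkp1, at -1.27 ± 0.574 (edgeR adjusted p = 0.105), passed without E16.5 stabilized replicate 1 (-1.77, edgeR adjusted p = 0.00543). It also passed without E13.5 stabilized replicate 2, so leaving out a single library changed the call.

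**Figure D3:**
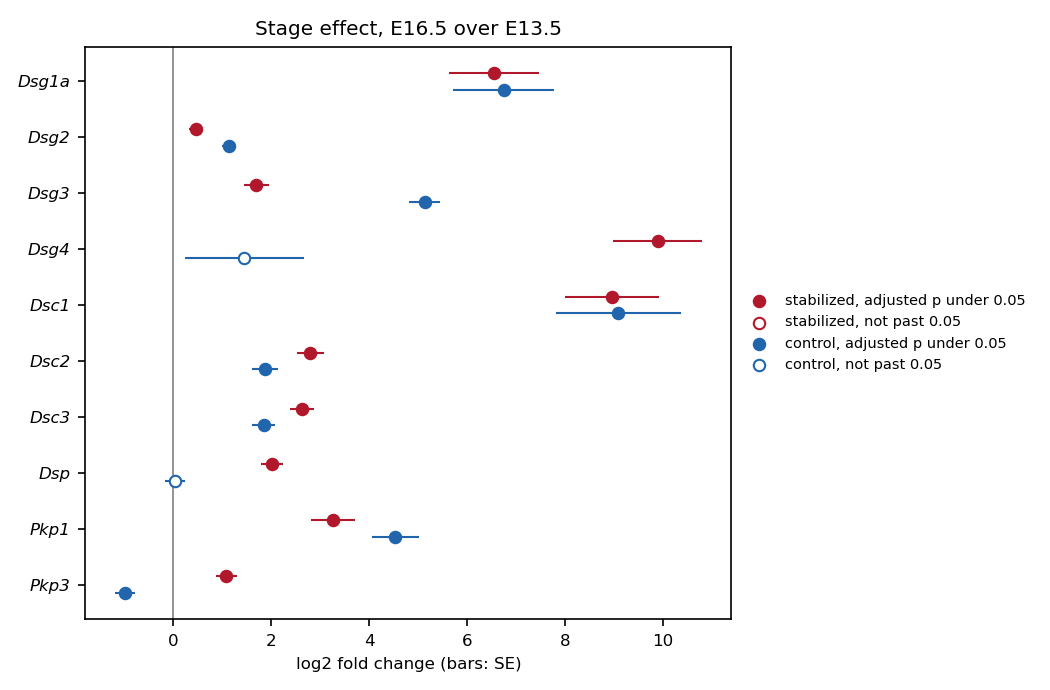
Log2 fold change of E16.5 over E13.5 for the 10 genes in stabilized (red, upper dot) and control (blue, lower dot) samples, with bars of 1 SE; filled dots passed an edgeR adjusted p of 0.05. Dsp and Pkp3 lay at 2.02 and 1.08 in stabilized samples, against 0.03 and -0.99 in controls, and Dsg3 at 1.70, against 5.13.

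Between the stages, control buds gained all 3 desmocollins and most desmogleins but not desmoplakin. In stabilized samples all 10 genes were called, each of them higher at E16.5 than at E13.5, where 28% of all genes tested were called in either direction and 2852 of 17269 higher. In control samples 7 were higher, 1 (Pkp3) was lower, and Dsp and Dsg4 were not called, where 24.9% of all genes were called higher and 22.6% lower. The median log2 fold change of the 10 was 2.71 in stabilized and 1.86 in control samples, beside 0.00 and -0.03 over all genes tested. These comparisons share their libraries with the genotype comparisons.

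The stage effect in controls was largest, by count, for Dsc1, with 1600 counts over the 5 E16.5 libraries and 2 counts over the 4 E13.5 libraries, a ratio with a 95% interval of 189 to 5665 (counting error only). Dsg1a (6.75 ± 1.03, edgeR adjusted p = 7.09e-05), Dsg3 (5.13 ± 0.312, edgeR adjusted p = 3.93e-10) and Pkp1 (4.54 ± 0.485, edgeR adjusted p = 1.11e-06) followed. All 4 encode proteins typical of stratified epithelium. Dsc2 and Dsc3 rose alike, by 1.87 ± 0.265 and 1.84 ± 0.234 on the log2 scale, and Dsg2 by 1.13 ± 0.137. Pkp3 fell by 0.99 ± 0.207 (edgeR adjusted p = 0.000641), and for Dsp the log2 fold change was 0.03 ± 0.209 (edgeR adjusted p = 0.918).

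In stabilized samples, the stage effect of Dsp was 2.02 ± 0.221 (edgeR adjusted p = 1.51e-06) and that of Pkp3 was 1.08 ± 0.213 (edgeR adjusted p = 0.000754). The interaction given above is also the test of the difference between these stage effects and those in controls. Dsg4 went up by 9.89 ± 0.907, Dsc1 by 8.95 ± 0.961 and Dsg1a by 6.55 ± 0.921, while Dsg3 rose by 1.70 ± 0.261 and Dsg2 by 0.47 ± 0.135 (edgeR adjusted p = 0.0135). The Dsg2 call was lost without E13.5 stabilized replicate 1 (edgeR adjusted p = 0.0510).

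Across the groups, 6 of the 10 genes (Dsg1a, Dsg3, Dsc1, Dsc2, Dsc3 and Pkp1) had the same order of mean level, from E16.5 stabilized through E16.5 control and E13.5 stabilized to E13.5 control. In 3 of the 6 (Dsg1a, Dsg3 and Dsc2) the E16.5 control and E13.5 stabilized libraries overlapped. Those groups were not tested against each other. In 3 (Dsg1a, Dsc1 and Dsc3) the E13.5 groups overlapped, though Dsg1a was called higher in E13.5 stabilized libraries by the test. Pkp1 alone of the 10 had 4 groups with no overlap. Dsp put E13.5 stabilized above E16.5 control, without overlap, Dsg2 put E16.5 control first, and Pkp3 put E16.5 control last. How often such orders and overlaps occur among all genes tested was not counted. They describe the 10 genes and do not set them apart from other genes.

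Levels of different genes were compared as CPM per kilobase of annotated exon (GENCODE M21). Dsp came first in every group, at 757 ± 316 CPM per kb in E16.5 stabilized and 99.7 ± 12.1 in E16.5 control libraries, and at 186 ± 22.3 in E13.5 stabilized and 97.4 ± 13.8 in E13.5 control libraries, apart from the gene below it each time. Below Dsp, the E16.5 stabilized order was Pkp1, Dsg1a, Dsc3, Dsg4, Pkp3, Dsc2, Dsc1, Dsg3 and Dsg2, in which each gene overlapped the next. The E13.5 control order was Pkp3, Dsg2, Dsc3, Dsc2, Pkp1, Dsg3, Dsg1a, Dsg4 and Dsc1. Pkp3 and Dsg2 thus held the places after Dsp in E13.5 controls, and Pkp3 stood apart from both its neighbours there.

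**Figure D4:**
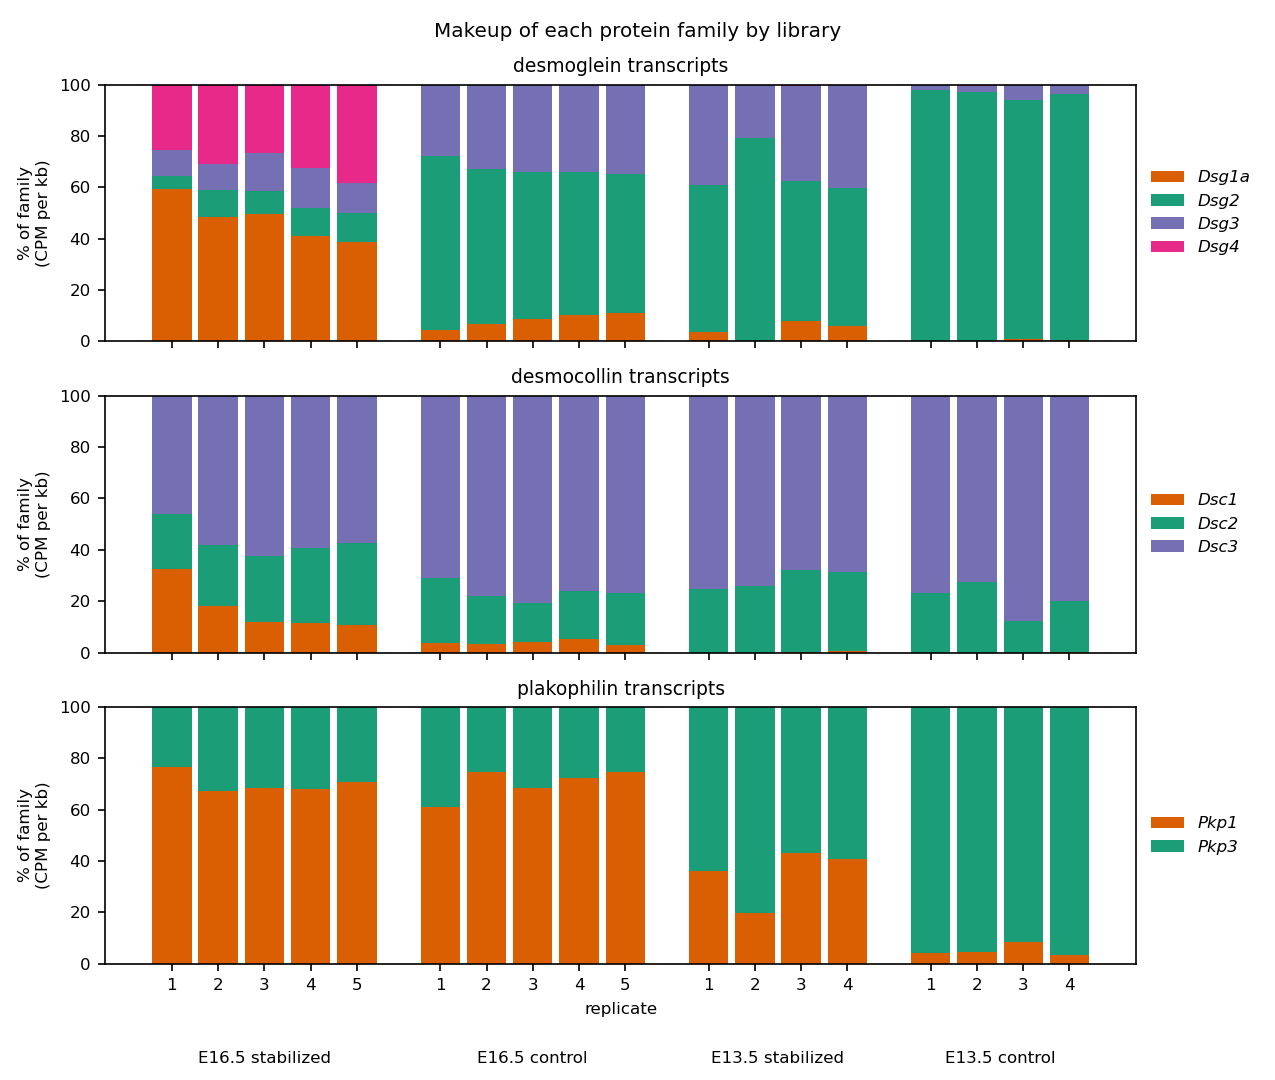
Share of each gene in the summed CPM per kb of the genes shown, by library, for 4 desmogleins without Dsg1b and Dsg1c (top), 3 desmocollins (middle) and 2 plakophilins without Pkp2 (bottom); columns are libraries, grouped from left to right as E16.5 stabilized, E16.5 control, E13.5 stabilized and E13.5 control. Dsg2 fills 95.9% of the desmoglein column on average in E13.5 controls and 9.40% in E16.5 stabilized libraries, where Dsg1a and Dsg4 take most of it.

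The makeup of each family among the 10 genes was set out per kilobase, as a description without a test. Summed, Dsg1a, Dsg2, Dsg3 and Dsg4 were at 318 ± 95.1 CPM per kb in E16.5 stabilized and 59.7 ± 6.01 in E16.5 control libraries, and 33.9 ± 6.27 in E13.5 stabilized and 16.7 ± 3.27 in E13.5 control libraries. Dsg2 made up 9.40% ± 2.64 and 59.1% ± 5.49 of these sums in E16.5 stabilized and E16.5 control libraries, and 61.0% ± 12.0 and 95.9% ± 1.98 in E13.5 stabilized and E13.5 control libraries. E16.5 control and E13.5 stabilized libraries overlapped in this share. They also overlapped in the share of Dsg3, at 32.6% ± 2.76 in E16.5 control and 34.2% ± 9.05 in E13.5 stabilized libraries, against 3.57% ± 1.63 in E13.5 controls. In E16.5 stabilized libraries Dsg1a held 47.4% ± 8.13 and Dsg4 30.8% ± 5.16, against 8.12% ± 2.78 for Dsg1a and 0.135% ± 0.135 for Dsg4 in E16.5 controls. With the length of the longest transcript in place of all exons, the Dsg2 share was 12.7% in E16.5 stabilized and 65.3% in E16.5 control libraries. With Dsg1b and Dsg1c counted in, the desmoglein sum was 399 ± 142 CPM per kb in E16.5 stabilized and 61.4 ± 6.09 in E16.5 control libraries. In E16.5 stabilized libraries Dsg1a then held 38.0% ± 4.97, Dsg4 24.9% ± 4.95, Dsg1b 19.2% ± 3.60 and Dsg2 7.65% ± 2.34, against 57.5% ± 5.60 for Dsg2 in E16.5 controls.

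The sum of the desmocollins was 223 ± 79.5 CPM per kb in E16.5 stabilized and 57.4 ± 9.10 in E16.5 control libraries, and 28.1 ± 10.5 in E13.5 stabilized and 15.3 ± 2.30 in E13.5 control libraries. Dsc3 was the largest part throughout, at 56.6% ± 6.19 and 76.4% ± 3.56 in E16.5 stabilized and E16.5 control libraries, and 71.5% ± 3.76 and 79.2% ± 6.41 in E13.5 stabilized and E13.5 control libraries. Dsc1 reached 17.0% ± 9.29 in E16.5 stabilized libraries, from 10.6% to 32.7%, against 3.78% ± 0.892 in E16.5 controls. Its highest share was in replicate 1.

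Of the summed Pkp1 and Pkp3, Pkp1 made up 70.3% ± 3.75 in E16.5 stabilized and 70.3% ± 5.75 in E16.5 control libraries, though the sum itself was 225 ± 139 CPM per kb in E16.5 stabilized and 57.9 ± 8.04 in E16.5 control libraries. At E13.5 the Pkp1 share was 34.9% ± 10.5 in stabilized and 5.19% ± 2.27 in control libraries. The genotypes thus overlapped in this share at E16.5 and were apart at E13.5, where the lowest stabilized library had 19.9% and the highest control 8.49%. Pkp2, counted in, held 0.708% ± 0.363 of the 3 in E16.5 stabilized and 1.31% ± 0.713 in E16.5 control libraries.

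At E16.5, markers of other epidermal cell types were also higher in stabilized libraries. The 7 suprabasal epidermis markers summed to 1079 to 19935 CPM in E16.5 stabilized libraries, with all 7 detected, and to 42.5 to 200.3 CPM in E16.5 controls, with 6 or 7 detected. At E13.5 they summed to 19.0 to 46.4 CPM in stabilized libraries, with Flg at 0, and to 14.8 to 31.1 CPM in controls, which overlapped. The 8 hair shaft keratins in the file summed to 3592 to 5582 CPM in E16.5 stabilized libraries, and to 0.0357 to 0.905 CPM in E16.5 controls, with Krt36 at 0. At E13.5 these keratins summed to at most 1.34 CPM in stabilized and 0.615 CPM in control libraries. The E16.5 stabilized group was thus the only group with more than traces of hair shaft RNA, as it was for Dsg4. Inner root sheath markers summed to 1544 to 5551 CPM in E16.5 stabilized libraries and 4.58 to 8.61 CPM in E16.5 controls, with Krt25 at 0. Their E13.5 sums, 4.15 to 10.5 CPM in stabilized and 1.58 to 6.32 CPM in control libraries, overlapped. At E16.5 all 7 suprabasal, 8 of 8 hair shaft and 7 of 7 inner root sheath markers were called higher (22.2% of all genes tested). At E13.5 1 of each was called higher (9.58% of all genes tested). What part these cell types have in the desmosomal differences was not tested.

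**Figure D5:**
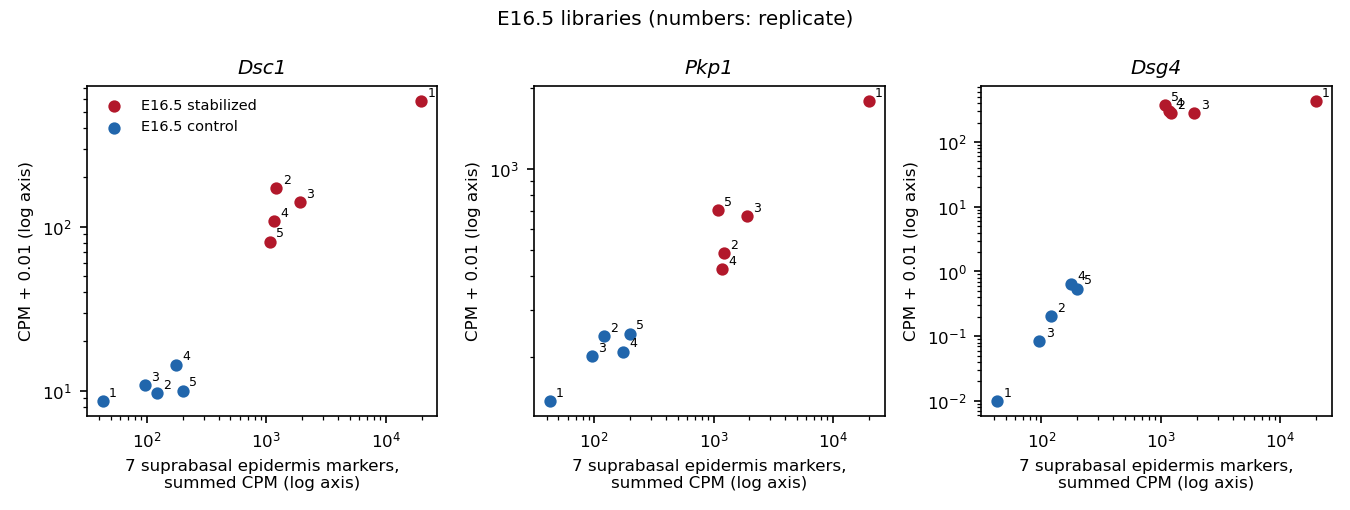
Dsc1, Pkp1 and Dsg4 (CPM plus 0.01, log axis) against the summed CPM of 7 suprabasal epidermis markers (log axis) in the 10 E16.5 libraries, numbered by replicate, stabilized in red and control in blue. Stabilized replicate 1, at 19935 CPM of markers, has the highest Dsc1 (584 CPM) and Pkp1 (1795 CPM), while its Dsg4 (429.8 CPM) lies close to the other 4 stabilized libraries.

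Replicate 1 of the E16.5 stabilized group, which had the most suprabasal RNA, was the highest of its group for 9 of the 10 genes and the lowest for Dsg2. Without it, 9 of the 10 genes were still called higher at E16.5 and Dsg2 was not called (edgeR adjusted p = 0.0909). Its Dsc1 was 584 CPM, against 172 CPM in the next library, and its Dsg4 429.8 CPM, against 367 CPM. At E13.5, stabilized replicates 1 to 4 had suprabasal sums of 31.7, 19.0, 46.4 and 40.3 CPM. Replicates 3 and 4 were also the highest for Dsp, Dsg1a, Dsg3, Dsg4, Dsc1, Dsc2, Dsc3 and Pkp1. Replicate 2 was the lowest, or level with the lowest, for these genes. Pkp3 was highest in replicates 3 and 4 too, but lowest in replicate 1. Mesenchyme markers summed to 383 to 675 CPM in E16.5 stabilized and 111 to 393 CPM in E16.5 control libraries. That list was split: of its 8 genes Dcn was higher (301 ± 74.7 CPM in E16.5 stabilized and 4.02 ± 3.46 CPM in E16.5 control libraries), Pdgfra and Pdgfrb were lower, and the other 5 did not pass. Melanocyte markers summed to 108 to 208 CPM in E16.5 stabilized and 568 to 753 CPM in E16.5 control libraries. Sox10 accounted for that, with 29.6 ± 19.9 CPM in E16.5 stabilized and 554 ± 59.0 CPM in E16.5 control libraries, while Dct, Pmel, Tyr and Mlana did not pass the test. The part of these cells in the results was not tested. Endothelial, immune and muscle marker lists summed to at most 26.5 CPM in any library.

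Of 9 other desmosome genes, 6 were higher and none lower at E16.5 (edgeR, and 0 lower at an unadjusted p under 0.05). At E13.5 edgeR called 0 of the 9, with 2, Pkp4 and Dsg1b, at an unadjusted p under 0.05, and DESeq2 called these 2. Over all genes tested, edgeR called 22.2% higher and 19.4% lower at E16.5, and 9.58% higher and 5.29% lower at E13.5. Perp, a tetraspan membrane protein that desmosomes need, had 1327 ± 574 CPM in E16.5 stabilized and 116 ± 9.07 CPM in E16.5 control libraries (log2 fold change 3.52 ± 0.253, edgeR adjusted p = 2.73e-09). Jup, plakoglobin, the plaque partner of the cadherin tails, had 935 ± 427 CPM in E16.5 stabilized and 347 ± 17.3 CPM in E16.5 control libraries (1.43 ± 0.238, edgeR adjusted p = 7.56e-05). The envelope plakins Evpl (3.51) and Ppl (2.78), corneodesmosin Cdsn (8.88) and Dsg1b (6.60) were also called higher, while Pkp2 (0.82), Pkp4 (-0.10) and Dsg1c (-0.08) were not called. For Perp, Jup, Evpl, Ppl and Dsg1b the effect was larger at E16.5 than at E13.5 by the interaction test, for example by 3.26 ± 0.354 for Perp (edgeR adjusted p = 1.28e-06). Pkp4 was called the other way (-0.42, edgeR adjusted p = 0.0497). At E13.5 Perp had 177 ± 38.6 CPM in stabilized and 147 ± 46.4 CPM in control libraries.

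Of 8 basal and simple keratins, the filaments to which desmoplakin anchors the plaque, 5 were higher and 2 lower at E16.5, and 4 higher and 2 lower at E13.5. The shares of all genes tested were 22.2% higher and 19.4% lower at E16.5, and 9.58% higher and 5.29% lower at E13.5. Krt5 had log2 fold changes of 2.48 ± 0.225 at E16.5 (edgeR adjusted p = 4.30e-08) and 1.16 ± 0.241 at E13.5 (edgeR adjusted p = 0.00210), and Krt17 of 2.05 ± 0.375 at E16.5 and 3.57 ± 0.447 at E13.5. Krt14, whose promoter drives the Cre, had -0.37 at E16.5, which did not pass (edgeR adjusted p = 0.189), and -1.22 ± 0.247 at E13.5 (edgeR adjusted p = 0.00169). Of 5 suprabasal keratins tested, 5 were higher at E16.5 and 1, Krt6a, at E13.5 (4.47, edgeR adjusted p = 0.0195). Krt6a did not pass with only the E13.5 libraries (edgeR adjusted p = 0.112), nor without control replicate 1, 2 or 4 or stabilized replicate 3, at an edgeR adjusted p of 0.0501 to 0.0599.

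Of 8 genes of the adherens junction, the other cadherin junction of epithelial cells, 6 were higher at E16.5 and 1 at E13.5, with a median log2 fold change of 0.80 at E16.5 and 0.30 at E13.5. Among all genes tested, 22.2% were called higher and 19.4% lower at E16.5, and 9.58% higher and 5.29% lower at E13.5. A single E13.5 call in a list of this length is near that share. Nectin4 had 1.49 ± 0.205 and Cdh3, P-cadherin, 0.79 ± 0.130 at E16.5. Of 7 proteases and inhibitors that act on corneodesmosomes, the modified desmosomes of cornified layers, 6 were higher at E16.5 and 1 at E13.5, St14, the protease matriptase, which had 1.54 ± 0.171 at E16.5 and 1.61 ± 0.192 at E13.5. Among 8 transcription factors of epidermis and hair, 7 were higher and 1 lower at E16.5, and 4 higher and 1 lower at E13.5. Trp63, a factor that stratified epithelium needs, had 2.99 ± 0.119 at E16.5. At E13.5 it had 0.14, which did not pass (edgeR adjusted p = 0.557). Grhl1, a factor known to act on Dsg1a in mouse skin, had 3.32 ± 0.266 at E16.5 and 1.66 ± 0.285 at E13.5 (edgeR adjusted p = 0.000420). Grhl2 was the factor lower at E16.5 (-0.35, edgeR adjusted p = 0.00552). Lef1 was lower at E13.5 (-0.88, edgeR adjusted p = 0.00556) and higher at E16.5 (2.62).

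For each of the 10 genes, the genes with the most alike pattern were sought by Pearson's r of log2 CPM over the 18 libraries, among 15474 named genes tested. These r are descriptions: the libraries fall into 4 groups and share their scaling. Pkp1 ran closest to Krt17 (r = 0.992), Dsg1a to Krt6a (0.988), Dsg3 to Muc15 (0.989) and Dsg4 to Prr9 (0.986). Dsc2 ran closest to Grhl1 (0.977), Dsp to Mid2 (0.984), Pkp3 to Shb (0.975) and Dsg2 to Pdzd8 (0.957), while Dsc1 (0.972) and Dsc3 (0.978) shared BC100530. Krt17 had 2823 ± 1363 CPM in E16.5 stabilized and 682 ± 141 CPM in E16.5 control libraries, and 326 ± 149 CPM in E13.5 stabilized and 27.5 ± 13.4 CPM in E13.5 control libraries, the same order of groups as Pkp1. Prr9 had 216 ± 68.4 CPM in E16.5 stabilized libraries and group means under 1 CPM elsewhere.

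Among the 10 genes themselves, r over the 18 libraries was highest for Dsc1 with Dsc3 (0.977) and Dsg1a with Dsc3 (0.969), and lowest for Dsg2 with Pkp3 (-0.26). With group means removed, r was 0.869 for Dsg1a with Dsg3, 0.816 for Dsp with Pkp3 and 0.719 for Dsc1 with Dsc3, again over 18 libraries as a description. Dsg2 was then at or below 0.309 with every other gene. The 7 cadherin genes lie in 1 cluster on chromosome 18, from 19960930 to 20604521 (GRCm38/mm10), a span of 643.592 kb that holds 9 protein-coding genes, all desmosomal cadherins. Dsc3, Dsc2 and Dsc1 come first, on the minus strand, then Dsg1c, Dsg1a, Dsg1b, Dsg4, Dsg3 and Dsg2 on the plus strand. Some neighbours in it moved the same way, as Dsc3, Dsc2 and Dsc1 did at E16.5, at 1.49, 2.33 and 4.34 on the log2 scale. The neighbours Dsg4, Dsg3 and Dsg2, picked after their values were seen, had E16.5 log2 fold changes of 10.17, 0.99 and -0.33, and E13.5 values of 1.74, 4.42 and 0.33.

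Some counts carry a limit from the annotation, since the strand setting of the counting is not given in the sources used here. Dsg2 overlaps Gm16090 on the opposite strand over 6558 bp, Dsp overlaps Gm10129 on the opposite strand over 499 bp, and Pkp1 (chromosome 1, 135871395-135919207) overlaps Gm36938 on its own strand over 2696 bp. The other 7, Pkp3 (chromosome 7, 141078218-141090510) among them, overlap no other annotated gene.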

How the data were processed

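Messenger RNA of mammary bud epithelium was sequenced in 18 libraries. The deposited table holds estimated counts per gene, all whole numbers as deposited, made, per the submitters' processing notes, with Trimmomatic 0.39 and Salmon 0.99.0 on mm10 among other tools (DESeq2 3.15, and FastQC 0.11.8 with MultiQC 1.9). A second deposited table holds a normalized signal per gene, whose ratio to the counts differs between genes within a library, and gave only the alternative offsets. For the counting, the annotation release and strand setting were not found in these sources. Of 24376 genes, 24166 had a symbol.

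Counts were analysed with R 4.3.3, edgeR 4.0.16 (quasi-likelihood test, robust, TMM factors, limma 3.58.1) over all 18 libraries, with 1 mean for each of 4 groups. The filter on low counts (filterByExpr, minimum count 10) left 17269 genes, and p-values were adjusted over all of them by the Benjamini-Hochberg method (threshold 0.05). The common dispersion was 0.250. Standard errors follow from the fold change and its F statistic. The fit was also run on simulated counts with a dispersion below the 0.250 fitted here. That run does not show how the fit behaves at the spread of these data. CPM per kilobase used the union of annotated exons in GENCODE M21, with the longest transcript as an alternative.

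The 10 genes and the other lists were chosen with earlier results of these data known. The genes named are the 10, the 9 other desmosome genes, up to 3 genes of each further list with the smallest adjusted p per genotype comparison, Ctnnb1 and Krt14, and the genes of most alike pattern, without predicted genes. Grhl2 and single markers of cell types were named besides. Labels do not tie libraries to litters, and p-values measure the spread between pooled samples. No 2 libraries agreed within counting noise (the smallest same-group chi-square per degree of freedom was 29.9). Alternatives were RLE factors, DESeq2 1.42.0, no filter, offsets of the deposited normalized table, only the groups compared, a replicate block and each library left out. Intervals of count ratios are exact 95% intervals that cover counting error only.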

Additional observations from a re-analysis of the deposited data

Results flagged for a closer look

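In E16.5 stabilized libraries, replicate 1 stood apart from its group (Dixon's test) with the highest Dsp, 12674 CPM against 6794 CPM in the next library. It did so too for Dsg1a (1641 against 851 CPM), Dsc1 (584 against 172 CPM) and Pkp1 (1795 against 705 CPM). The same library held 19935 CPM summed over 7 suprabasal epidermis markers, against 1913 CPM in the next. At E13.5, stabilized replicate 1 had the lowest Dsg2, 144 CPM against 174 CPM in the next, and Dsc1 in controls was at 0.0647 CPM in replicate 4 and at 0 in the other 3 libraries. Of 44 groups of values tested in this way 7 stood out, where chance gives about 1 in 20 for independent groups of normally spread values. These groups were not independent, since most of the 7 flags fell on E16.5 stabilized replicate 1. For Dsc1 in E13.5 controls, a lone library above 0 is flagged whatever its value.

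The genotype effect differed between the stages by the interaction test for 5 of the 10 genes, and for 32.2% of all genes tested. The E16.5 effect minus the E13.5 effect was 1.99 for Dsp, 8.43 for Dsg4 and 2.07 for Pkp3 on the log2 scale. It was -0.67 for Dsg2 and -3.43 for Dsg3. The Dsg4 call was lost without E13.5 control replicate 2 and the Dsg2 call with the offsets of the deposited normalized table.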

How the results depend on the processing

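Over all genes, E13.5 genotype calls fell to 1712 with the offsets of the deposited normalized table and 1651 with only the E13.5 libraries, against 2569. The count of the 10 genes lower at E16.5 (1, Dsg2) was 0 with RLE factors, with DESeq2, without the filter and with those offsets. In the interaction, DESeq2 called 5 of the 10 genes larger at E16.5, against 3, and the offsets left 1 smaller, against 2. Leaving out each library in turn gave 5 to 6 of the 10 higher at E13.5, 9 higher and 0 to 1 lower at E16.5, and 3 to 5 larger and 2 to 3 smaller in the interaction. In the stage comparisons it gave 9 to 10 higher in stabilized samples, and 7 higher and 1 lower in controls. Gene counts then ran from 1920 to 3035 at E13.5, 6434 to 7771 at E16.5 and 4942 to 6094 in the interaction, and from 3960 to 5479 and 7407 to 8362 for stage in stabilized and control samples.

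Directions turned for values near 0. With the offsets, Pkp4 at E16.5 was 0.34, the Dsc1 interaction 0.17 and Dsp between stages in controls -0.0175. Over the fits that leave out a library, Pkp2 at E13.5 ran from -0.58 to 0.00299, Evpl at E13.5 from -0.0344 to 0.26 and Dsg1c at E16.5 from -0.18 to 0.0452. The interaction ran from -1.34 to 0.29 for Dsg1a and from -2.38 to 1.19 for Dsc1, and Dsp between stages in controls from -0.0546 to 0.11. Of 1237 alternative values of the 10 genes, 1184 kept direction and side of the threshold, 14 lost it, 22 passed it and 17 turned; the causes were not tested.

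Replicate numbers did not pair the samples (r of same-numbered libraries -0.0995 to 0.172). A fit with the replicate block called 2260 genes at E13.5, 6756 at E16.5, 5134 in the interaction, and 4391 and 7571 for stage in stabilized and control samples. It kept each count of the 10 genes and turned Dsg1c at E16.5 (0.0139). In an alternative chosen after seeing the data, without E13.5 control replicate 3 and E16.5 stabilized replicate 1, 9 of the 10 were higher and 1 lower at E16.5, 6 were higher at E13.5, and 3 were larger and 3 smaller in the interaction, while Dsp between stages in controls was -0.0602.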
